A study of Mus musculus with 2 samples.

Results

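Activated neutrophils are described here as the neutrophils of the mouse cochlea that carried transcripts of Cxcl2, Acod1, Ccrl2 and Nr4a3. They numbered 1368 of the 6803 deposited cell barcodes, 637 in the implanted library and 731 in the non-implanted one. A barcode was kept when it had at least 200 detected genes and at most 10% of its UMIs (unique molecular identifiers, the counted transcript molecules) from mitochondrial genes, which left 6662 cells. A cell counted as a neutrophil when S100a8 and S100a9 made up at least 3% of its UMIs, Camp, Ngp and Ltf together under 1.5%, the 3 C1q genes summed to under 5 UMIs and Ccr2 with F13a1 to under 4. Of the 2535 neutrophils, those with at least 5 UMIs of Cxcl2, Acod1, Ccrl2 and Nr4a3 together were called activated, and the 1167 below that number (450 implanted, 717 non-implanted) are called other neutrophils. The 4 selecting genes were themselves read from these cells, so their height in the class is a description and not a finding, and the same holds for every gene set against the other neutrophils.

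Both libraries held cochlear cells of C57BL/6J mice carrying CX3CR1+/GFP and Thy1+/YFP reporters, males and females pooled, selected with magnetic beads for the surface protein CD11b and captured in droplets for 3' RNA sequencing. The implanted library came from cochleae that had received a cochlear implant electrode array, taken 33 days after implantation per the series design text, and the non-implanted library from cochleae without one. Opposite ears were collected in the study, but the labels leave unsaid if the non-implanted library is from them, if the array carried a drug, and how many mice went into a pool. With 1 library of each kind no replicate check and no test were possible, and implantation cannot be told apart from any other difference between the libraries.

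Neutrophils reach tissue from the blood, and after contact with microbial products, cytokines or damaged tissue they switch on genes under the transcription factor NF-kappa B. Among those genes are chemokines, which call in further neutrophils, interleukin 1, adhesion molecules and the inhibitors that shut the pathway off again. Cxcl2 encodes a chemokine that attracts neutrophils through the receptor Cxcr2, Acod1 the mitochondrial enzyme that makes itaconate, Ccrl2 a surface receptor that holds chemerin without signalling, and Nr4a3 a nuclear receptor of the early response. Il1b, which encodes the cytokine interleukin 1 beta, was the marker given with the class that the selection did not use.

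The 250 bases before the RefSeq transcription start (build GRCm38.p6) are shown for the 4 selecting genes and for Nfkbia and Icam1, the inhibitor and the adhesion molecule on which the later comparisons turn. Capitals mark stretches that match a kappa B motif, spelled GGNNNTTCC and searched on both strands, with overlapping matches merged. The windows are chr5:90903649-90903898 on the plus strand for Cxcl2, chr14:103046762-103047011 on the plus strand for Acod1, chr9:111057519-111057768 on the minus strand for Ccrl2, chr4:48045055-48045304 on the plus strand for Nr4a3, chr12:55492648-55492897 on the minus strand for Nfkbia and chr9:21015690-21015939 on the plus strand for Icam1.
Cxcl2: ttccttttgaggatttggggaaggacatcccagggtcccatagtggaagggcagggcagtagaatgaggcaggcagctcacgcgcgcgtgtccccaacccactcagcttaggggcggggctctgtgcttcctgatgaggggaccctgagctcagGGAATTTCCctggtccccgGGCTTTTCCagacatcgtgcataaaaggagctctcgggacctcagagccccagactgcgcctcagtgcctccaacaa
Acod1: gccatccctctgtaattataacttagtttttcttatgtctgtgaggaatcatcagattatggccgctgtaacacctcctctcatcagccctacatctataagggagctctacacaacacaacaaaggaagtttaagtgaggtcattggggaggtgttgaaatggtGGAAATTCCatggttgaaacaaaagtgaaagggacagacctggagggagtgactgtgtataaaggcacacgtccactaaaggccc
Ccrl2: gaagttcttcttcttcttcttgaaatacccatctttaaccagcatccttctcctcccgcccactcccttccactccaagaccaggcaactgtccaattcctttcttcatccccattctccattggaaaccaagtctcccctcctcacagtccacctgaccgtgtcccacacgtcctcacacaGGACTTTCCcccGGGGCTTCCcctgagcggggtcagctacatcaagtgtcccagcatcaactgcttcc
Nr4a3: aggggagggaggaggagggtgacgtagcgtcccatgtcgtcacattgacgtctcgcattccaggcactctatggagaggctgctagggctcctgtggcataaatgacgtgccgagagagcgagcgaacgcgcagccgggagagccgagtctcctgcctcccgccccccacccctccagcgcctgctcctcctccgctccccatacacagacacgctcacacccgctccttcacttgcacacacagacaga
Nfkbia: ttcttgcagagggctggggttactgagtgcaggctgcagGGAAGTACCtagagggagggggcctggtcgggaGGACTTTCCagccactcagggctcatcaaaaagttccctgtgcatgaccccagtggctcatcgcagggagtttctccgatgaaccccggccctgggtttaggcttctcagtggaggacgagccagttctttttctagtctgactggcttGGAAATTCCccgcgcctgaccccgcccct
Icam1: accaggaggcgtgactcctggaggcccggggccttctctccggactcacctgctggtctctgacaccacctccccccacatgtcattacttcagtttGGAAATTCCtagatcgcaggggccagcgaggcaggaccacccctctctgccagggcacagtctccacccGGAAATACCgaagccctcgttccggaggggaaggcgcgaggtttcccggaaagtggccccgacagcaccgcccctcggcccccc
The matches began 96 and 77 bases before the start of Cxcl2 and 85 before that of Acod1. They began 211, 178 and 29 bases before the start of Nfkbia, and 153 and 84 before that of Icam1. Nr4a3 held none in its window. Ccrl2 had 3 annotated starts, and the start shown was picked for having most matches, 68 and 56 bases before it. The windows of its other starts held 0. A gene with several starts counted as holding a motif when any of its windows did, here and among all genes. Of the 17 genes made up of the selecting genes, Il1b and the 12 genes named below as higher in the class, 13 were matched to a window by symbol, and 7 of these (53.8%) held the motif: Cxcl2, Acod1, Ccrl2, Nfkbia, Tnfaip3, Icam1 and Nfkbie. Among all genes with promoter windows, 27025 in number, 17.6% held it, and of all 32851 windows 15.7%. An AP-1 motif, TGANTCA, stood in the windows of Tnfaip3 and Nfkbie among the 13, and in those of 7.82% of all genes. A match describes the letters and does not show a bound site.

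The class was held against neutrophil markers. S100a8 and S100a9, which the selection used, made up a median 17.1% and 17.5% of the UMIs of implanted and non-implanted activated cells. Csf3r, the receptor for the growth factor G-CSF, was detected in 96.7% of implanted and 97.8% of non-implanted activated cells, and none of the 6 neutrophil identity genes was at 0. Ly6g, the gene of the surface antigen used to sort mouse neutrophils, was detected in 36.3% of implanted and 38.4% of non-implanted activated cells, and in 42.4% and 42.7% of the other neutrophils. The label therefore held for most cells, with a few exceptions that are given next.

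Depth was alike in the compared classes. Activated cells had a median of 2686 UMIs (implanted) and 2797 UMIs (non-implanted), and other neutrophils 2701.5 and 2700 UMIs. Over whole libraries the totals were 19593003 and 21577033 gene UMIs in 3231 and 3572 barcodes. The libraries shared 6 barcode sequences, of which 1 was an activated cell in each library. A few barcodes were rich in genes of other cell types. These had at least 50 UMIs of another type's marker list, the monocyte list apart, or of the primary granule genes Mpo, Elane, Prtn3 and Ctsg. They were 3 implanted and 4 non-implanted activated cells, and 5 and 6 other neutrophils. These 18 barcodes held 1.61% of the UMIs of implanted and 1.84% of non-implanted activated cells, but 5.68% and 5.90% of those of the other neutrophils. Among implanted activated cells, 1 barcode held 94.6% of the 537 UMIs of the basophil and mast cell list and 1 held 57.2% of the 589 MHC class II UMIs. Among non-implanted activated cells, 1 barcode held 96.4% of the 1012 UMIs of Mpo, Elane, Prtn3 and Ctsg and 1 held 85.3% of the 68 fibroblast list UMIs. The osteoclast genes Acp5, Atp6v0d2, Ctsk and Ocstamp, chosen after the values were seen, were not among the lists used. Of their UMIs, 1 barcode held 89.3% of 131 in non-implanted activated cells and 1 held 94.5% of 366 in non-implanted other neutrophils. Summed markers of other lists were read in the same way. The 14 macrophage markers, none at 0, summed to 551 CPM (UMIs per 1e6 of the class) in implanted and 483 CPM in non-implanted activated cells, against 401 and 433 CPM in other neutrophils. The 12 monocyte markers, of which Irf8 was at 0, summed to 837 and 828 CPM in activated cells, against 857 and 999 CPM in other neutrophils. At least 50 monocyte list UMIs were found in 1 implanted and 1 non-implanted activated cell, and in 0 and 3 other neutrophils. The dendritic cell list summed to 319.8 and 189.9 CPM in activated cells, against 105 and 124 CPM in other neutrophils.

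The share of neutrophils that were activated was higher in the implanted library. Of 1087 implanted neutrophils 637 were activated, or 58.6% (95% interval 55.6 to 61.5), and of 1448 non-implanted neutrophils 731, or 50.5% (47.9 to 53.1). The difference was 8.12 percentage points (4.20 to 12). Intervals of shares are exact Clopper-Pearson and of their differences Newcombe. Every interval here covers counting error alone, without the spread from animal to animal or from library to library.

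Measured against every filtered cell, the activated share was nearly the same, at 20.2% of implanted and 20.8% of non-implanted cells (difference -0.580 points, -2.52 to 1.37). The other neutrophils made up 14.3% of implanted and 20.4% of non-implanted cells (difference -6.12 points, -7.92 to -4.31), and all neutrophils 34.5% and 41.2%. The higher activated share among implanted neutrophils thus went with fewer other neutrophils per captured cell. Shares of cells retained by CD11b beads are not shares of cells in the cochlea.

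Within the class, implanted cells carried more of the selecting transcripts. The median was 17 UMIs (quartiles 10 and 33, highest 267) in implanted and 15 UMIs (quartiles 8 and 26, highest 195) in non-implanted activated cells. At least 40 such UMIs were found in 11.1% (9.32 to 13.2) of the implanted neutrophils and in 6.77% (5.53 to 8.19) of the non-implanted ones, and none at all in 14.8% (12.8 to 17.1) and 19.2% (17.2 to 21.3). The distribution had no gap at the threshold: exactly 5 UMIs were found in 44 implanted and 66 non-implanted cells, and exactly 4 in 42 and 68. Il1b stood at 2706 CPM in implanted and 3906 CPM in non-implanted cells with exactly 5 UMIs, and at 3318 and 3361 CPM in those with exactly 4.

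**Figure D1:**
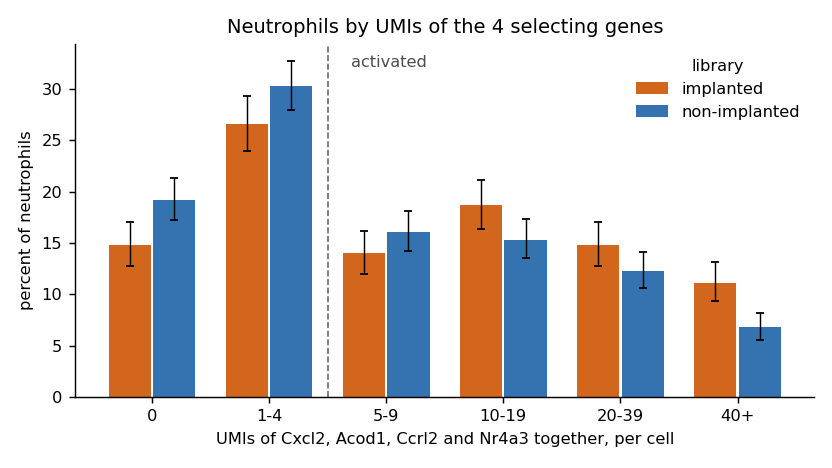
Percent of neutrophils (y axis) by UMIs of Cxcl2, Acod1, Ccrl2 and Nr4a3 together per cell (x axis), implanted left of non-implanted in each pair, with exact 95% counting intervals. Implanted bars are the higher ones from 10 UMIs on, and the non-implanted bars at 0, 1 to 4 and 5 to 9 UMIs.

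Since 5 raw UMIs are reached sooner in deeper cells, the share was also read in bands of depth. It was 53.6% in implanted and 41.7% in non-implanted neutrophils under 2000 UMIs (difference 11.8 points, 3.52 to 19.9), 61.0% and 54.0% at 2000 to under 3000 UMIs (7.04 points, 0.829 to 13.1), and 58.6% and 48.4% at 3000 to under 4000 UMIs (10.1 points, 2.29 to 17.8). At 4000 UMIs or more it was 60.3% and 58.0%, and the difference of 2.32 points had an interval that spanned 0 (-8.31 to 12.7). Free RNA in the droplets was gauged in B-lineage cells, defined by at least 3 UMIs of Cd79a and Cd79b and S100a8 with S100a9 under 3% of UMIs, where 0 of 39 implanted cells reached 5 UMIs, which allows a share of up to 9.03%, and 1 of 25 non-implanted cells (4%) did, at median depths of 3766 and 3781 UMIs. In granule-rich precursors (Camp, Ngp and Ltf at 5% of UMIs or more), which were deeper at a median of 7562 and 7963.5 UMIs, 7.26% of implanted and 7.85% of non-implanted cells reached it.

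Most activated cells carried several of the 4 transcripts. All 4 were detected in 19% (16.0 to 22.3) of the implanted activated cells and in 8.76% (6.81 to 11) of the non-implanted ones, 3 in 32.3% and 30.1%, 2 in 38.1% and 42.4%, and 1 alone in 10.5% and 18.7%. Cxcl2 supplied 58.8% of the selecting UMIs in implanted and 58.5% in non-implanted activated cells, Acod1 31.5% and 33.3%, Ccrl2 6.94% and 5.59%, and Nr4a3 2.79% and 2.59%. Without Cxcl2, 68.3% of implanted and 66.5% of non-implanted activated cells still had 5 UMIs of the other genes.

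Detection of each selecting gene was higher among implanted activated cells, also after every cell had been thinned to 1000 UMIs (632 implanted and 728 non-implanted cells, with 5 and 3 shallower cells left out). Cxcl2 was detected in 90.7% of implanted and 85.6% of non-implanted activated cells (82.3% and 76.2% thinned), and Acod1 in 87.3% and 81.3% (75.3% and 69.0% thinned). Ccrl2 was detected in 49.1% of implanted and 38% of non-implanted activated cells (33.2% and 25.0% thinned), and Nr4a3 in 32.7% and 23.9% (17.4% and 12.4% thinned). As levels, Cxcl2 stood at 5329 CPM in implanted and 4105 CPM in non-implanted activated cells (ratio 1.30, 1.26 to 1.34), Acod1 at 2858 and 2334 CPM (1.22, 1.18 to 1.27), Ccrl2 at 629 and 392 CPM (1.60, 1.47 to 1.75) and Nr4a3 at 253 and 182 CPM (1.39, 1.22 to 1.60). Ratios of CPM carry exact conditional intervals that take UMIs as independent draws, and they come out too small for a gene whose counts sit in a handful of cells.

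Outside the neutrophils the 4 transcripts were present too. Activated cells held 55.6% of all selecting UMIs of the filtered implanted cells and 65.4% of the non-implanted ones, other neutrophils 2.02% and 3.86%, and cells that did not meet the neutrophil rule 42.3% and 30.8%. At least 5 such UMIs were found in 17.9% of these remaining cells when implanted and in 14.6% when non-implanted.

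The activated and the other neutrophils were then set side by side within each library, on the log2 ratio of CPM + 5. At least 2-fold higher in both libraries were 65 of 8855 measured genes (0.734%), the 4 selecting genes among them, and at least 2-fold lower in both were 71 (0.802%). The median over all measured genes was -0.08 in implanted and -0.09 in non-implanted neutrophils. The cells were split by transcripts of the same cells, so these counts describe the split. Ranked by the smaller of both libraries' ratios, the leading genes apart from the selecting ones were mostly parts of the NF-kappa B pathway and its feedback, with the adhesion molecule gene Icam1 and the lipopolysaccharide receptor gene Cd14 among them.

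Nfkbia and Tnfaip3 led. Nfkbia, whose product holds NF-kappa B in the cytoplasm and is made anew when the pathway is on, stood at 1462 CPM in activated and 189.6 CPM in other implanted neutrophils, and at 1098 and 153 CPM in the non-implanted ones (log2 ratios 2.91 and 2.80). It was detected in 66.7% of implanted and 57.9% of non-implanted activated cells (54.0% and 41.5% thinned), against 31.8% and 25.5% of other neutrophils (17.0% and 12.8% thinned). B-lineage cells had Nfkbia in 53.8% and 56% unthinned and in 15.8% and 20% thinned. Tnfaip3, which encodes the ubiquitin-editing brake A20, had log2 ratios of 3.15 in implanted and 2.48 in non-implanted neutrophils, and Nfkbie, another NF-kappa B inhibitor, 2.00 and 1.75. Both libraries thus had the inhibitors on the same side.

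Subunits, adaptors and kinase regulators stood with them. Relb, an NF-kappa B subunit, stood at 116 CPM in activated and 24.8 CPM in other implanted neutrophils, and at 70.8 and 14 CPM in the non-implanted ones. Birc3, a ubiquitin ligase of the TNF receptor complex, had log2 ratios of 2.15 (implanted) and 1.81 (non-implanted), Traf1, an adaptor of that complex, 2.38 and 1.66, and Malt1, a protease that passes signals to NF-kappa B, 1.59 and 1.51. Dusp16, a phosphatase of the JNK kinases, had 2.41 and 1.96, Sec24a, a coat protein of secretory vesicles, 1.85 and 1.56, and Slc38a1, a glutamine transporter, 1.88 and 1.47.

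At the surface, Cd14, the co-receptor for lipopolysaccharide, stood at 461 CPM in activated and 57.3 CPM in other implanted neutrophils, and at 209 and 54.6 CPM in the non-implanted ones (log2 ratios 2.90 and 1.84). Icam1, the ligand of the beta 2 integrins, stood at 59.7 and 12.4 CPM in the implanted and at 24.8 and 3.27 CPM in the non-implanted library (1.90 and 1.85). Il1b stood at 5457 CPM in activated and 2010.3 CPM in other implanted neutrophils, and at 4536 and 2249.6 CPM in the non-implanted ones (1.44 and 1.01). It was detected in 93.9% of implanted and 90.4% of non-implanted activated cells (86.2% and 82.3% thinned), in 69.6% and 75.3% of other neutrophils (59.5% and 62.9% thinned) and in 10.3% and 8% of B-lineage cells (2.63% and 4% thinned). Il1b was thus common in neutrophils outside the class as well, and the class stood higher in both level and detection.

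**Figure D2:**
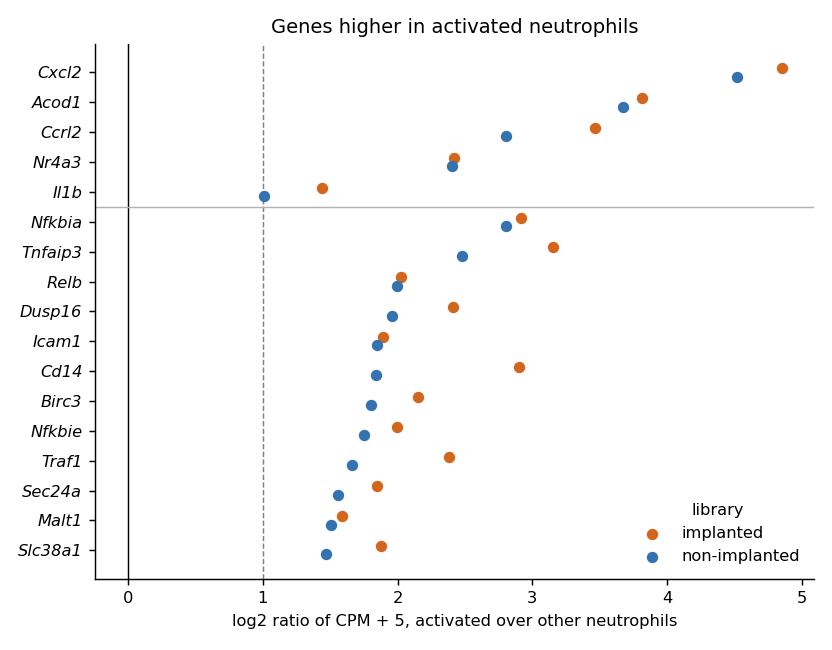
Log2 ratio of CPM + 5, activated over other neutrophils (x axis), for the 4 selecting genes and Il1b (above the grey line) and the 12 named genes (below it), 1 point per library. Every point lies right of the dashed 2-fold line, and Cd14 has 2.90 in implanted and 1.84 in non-implanted neutrophils.

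Of 21 measured genes of the NF-kappa B list (subunits and feedback), 10 were at least 2-fold higher in activated cells in both libraries and 0 lower, with medians of 1.37 in implanted and 0.92 in non-implanted neutrophils. The higher members were Nfkb1, Relb, Nfkbia, Nfkbie, Tnfaip3, Tnip1, Birc3, Traf1, Icam1 and Sod2. Over all measured genes 0.734% were higher and 0.802% lower in both libraries. Of 9 measured chemokine genes, 5 were higher: Cxcl2, which was selected on, Cxcl3, Cxcl10, Ccl3 and Ccl4. Ccl3, a chemokine for monocytes, stood at 706 CPM in activated and 174 CPM in other implanted neutrophils, and at 483 and 187 CPM in the non-implanted ones. Ccl6, another chemokine gene, stood at 3342 and 3310 CPM in the implanted and at 3460 and 3262 CPM in the non-implanted library, almost level.

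Of 13 measured genes of the interleukin 1 axis, 3 were at least 2-fold higher in both libraries (Il1a, Il1b and the inflammatory caspase gene Casp4). With the rich barcodes left out, 2 of 13 were. Il1b then had log2 ratios of 1.36 in implanted and 0.94 in non-implanted neutrophils, the latter below 2-fold. Nlrp3, which senses damage in the inflammasome, had log2 ratios of 1.15 in implanted and 0.83 in non-implanted neutrophils, and Il1rn, which encodes the antagonist of the interleukin 1 receptor, 0.88 and 0.51. Of 11 cytokine and mediator genes 3 were higher (Tnf, Il23a and the macrophage growth factor gene Csf1), and of 16 pattern recognition genes 2 (Cd14 and Clec4n). Of 16 survival genes 2 were higher, the kinase gene Pim1 and Bcl2l11, whose product Bim promotes cell death. Without the rich barcodes 1 of 16 survival genes was higher. Of 10 chemoattractant receptor genes 1 was higher, Ccrl2, on which the cells were selected. Over all measured genes 0.734% were at least 2-fold higher in both libraries.

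Early response genes were divided. Of 32 measured, 4 were at least 2-fold higher in activated cells and 0 lower, with medians of 0.24 and 0.23. The 4 were Nr4a1, Maff, Gadd45b and Nr4a3, and Nr4a3 was selected on, so its call was fixed in advance. Without the barcodes rich in genes of another type 3 of 31 were higher. The shares over all measured genes were 0.734% higher and 0.802% lower. Jun, a subunit of the AP-1 factor, stood at 818 CPM in activated and 1401 CPM in other implanted neutrophils, and at 1076 and 1416 CPM in the non-implanted ones (-0.77 and -0.39). Fos, its partner, had log2 ratios of -0.34 in implanted and -0.07 in non-implanted neutrophils.

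General neutrophil genes did not pass the 2-fold line. Of 26 measured mature neutrophil genes 0 were at least 2-fold higher or lower in both libraries, with medians of -0.01 and 0.03. Over all measured genes 0.734% were higher and 0.802% lower. For lists as short as those in this paragraph, 0 calls are near that share. Cxcr2, the receptor for Cxcl2, stood at 646 CPM in activated and 718 CPM in other implanted neutrophils, and at 687 and 729 CPM in the non-implanted ones. Retnlg, a secreted neutrophil product, had log2 ratios of -0.35 in implanted and -0.14 in non-implanted neutrophils, and Csf3r 0.05 and 0.13. Of 7 NADPH oxidase genes 0, and of 20 genes described for Siglecf-positive tissue neutrophils 0, passed the line in both libraries. Siglecf itself stood at 3.76 CPM in activated and 9.29 CPM in other implanted neutrophils, and at 8.41 and 9.80 CPM in the non-implanted ones.

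Most of the lower calls were not made once a few barcodes were left out. Under the naming rule 10 genes qualified: Serpinb1a, an inhibitor of granule proteases, Camp, a granule peptide gene that the selection capped, the ribosomal protein genes Rps18 and Rpl32, the chaperones Pdia3 and Pdia6, and Abca13, Snrpg, Gm14586 and Bola2. Serpinb1a stood at 19.3 CPM in activated and 88.2 CPM in other implanted neutrophils, and at 28.3 and 79.8 CPM in the non-implanted ones. Summed Mpo, Elane, Prtn3 and related primary granule genes stood at 86.0 CPM in activated and 4467 CPM in other implanted neutrophils, and at 499 and 2512 CPM in the non-implanted ones, and 5 of the other neutrophils in each library had at least 50 UMIs of Mpo, Elane, Prtn3 and Ctsg. Without the 18 barcodes rich in genes of another type, 3 of 8200 genes instead of 71 were lower in both libraries, while 69 were higher, and 59 of the 65 higher genes were kept. The log2 ratios of Camp were then -1.13 in implanted and -0.95 in non-implanted neutrophils, those of Serpinb1a -1.10 and -0.68, and those of Abca13 -1.04 and -0.57. The 3 genes lower in both libraries were 1810006J02Rik, Cd55, which encodes a shield against complement, and the heat shock gene Hspa1b. They are named after their values were seen. Hspa1b had log2 ratios of -1.66 in implanted and -1.22 in non-implanted neutrophils without those barcodes.

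**Figure D3:**
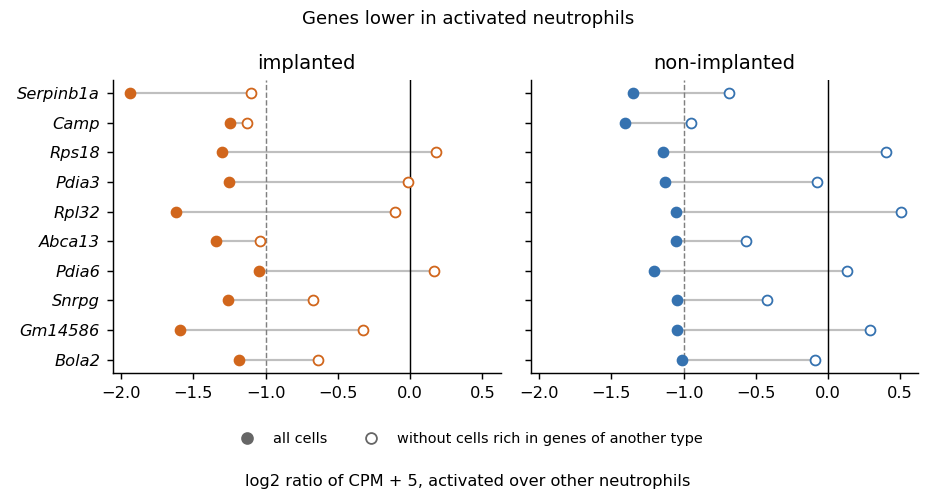
Log2 ratio of CPM + 5, activated over other neutrophils (x axis), for the 10 named lower genes, implanted in the left and non-implanted in the right panel. Filled points include all cells and lie left of the dashed 2-fold line, and open points leave out 18 barcodes rich in genes of another cell type, with Rps18 at 0.18, Pdia6 at 0.17 and Camp at -1.13 in the implanted library.

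Levels followed the number of selecting UMIs across the whole range, on both sides of the threshold. Nfkbia stood at 165, 204, 363, 844, 1871 and 2970.5 CPM in implanted neutrophils with 0, 1 to 4, 5 to 9, 10 to 19, 20 to 39 and at least 40 selecting UMIs, and at 116, 178, 344, 689, 1515 and 2432 CPM in the non-implanted ones. Il1b stood at 1410.3, 2362, 3613, 4380.0, 6204 and 7976 CPM in implanted and at 1703, 2618, 3595, 4207, 5372 and 5450.3 CPM in non-implanted neutrophils over the same bins. Il1b was thus already graded among cells outside the class, and the libraries were furthest apart in the top bin.

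Cd14 stood at 35.6, 70.0, 178, 331, 439.7 and 938 CPM in implanted and at 45.2, 60.9, 107, 179.9, 242 and 377 CPM in non-implanted neutrophils. Icam1 was low until the top bin, where it stood at 175 CPM in implanted and 63.7 CPM in non-implanted cells, against 36.5 and 30.2 CPM in the bin before. In the opposite direction, Retnlg stood at 17107 CPM in implanted and 24116 CPM in non-implanted cells of the top bin, against 33861 and 30178 CPM in cells without selecting UMIs. Fos stood at 2409 CPM in implanted and 3396 CPM in non-implanted cells of the top bin, against 4016 and 3905 CPM without selecting UMIs. Csf3r kept between 1766 and 2051 CPM over the implanted bins and between 1607 and 2058 CPM over the non-implanted ones.

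**Figure D4:**
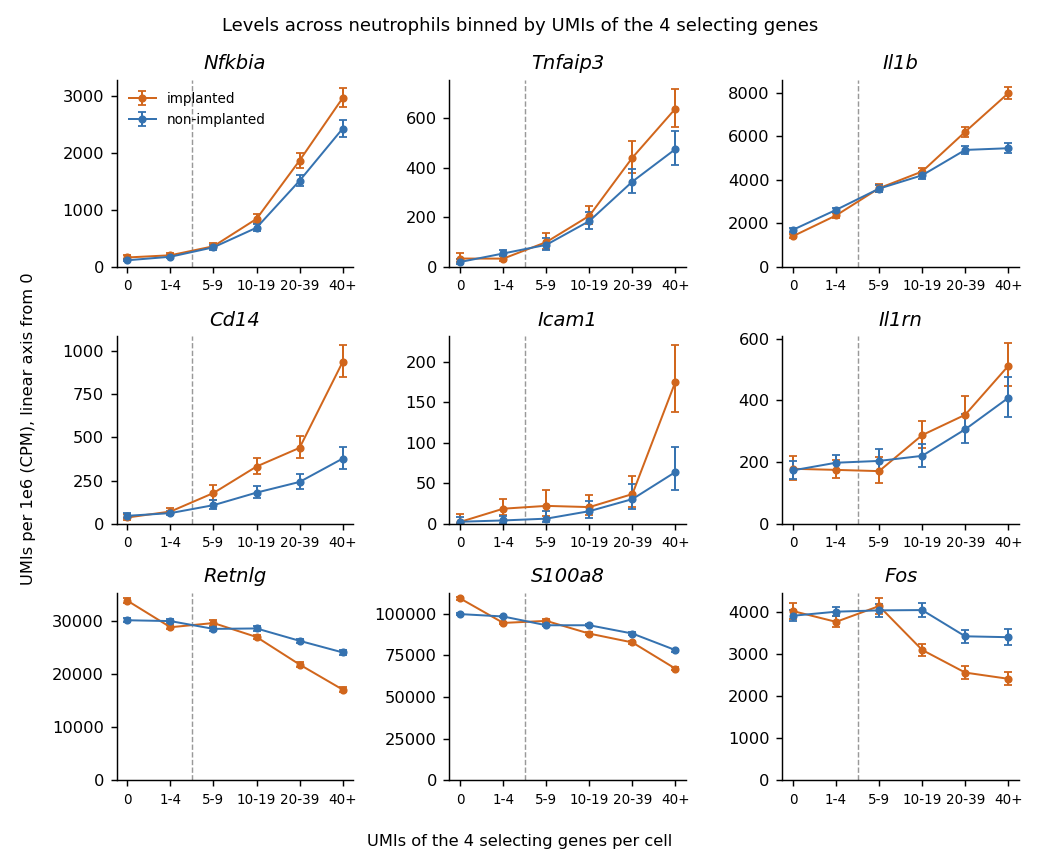
CPM (y axes, from 0) of 9 genes in neutrophils binned by UMIs of the selecting genes (x axis), for both libraries, with exact Poisson 95% intervals and the threshold as a dashed line. Nfkbia reaches 2970.5 CPM in implanted and 2432 CPM in non-implanted cells of the top bin, and Retnlg is lowest there.

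Activated cells of the libraries were then compared with each other. On the log2 ratio of CPM + 5, implanted over non-implanted, 34 of 7180 measured genes (0.474%) were at least 2-fold higher and 86 (1.2%) at least 2-fold lower, and at a 1.5-fold line 223 (3.11%) were higher and 346 (4.82%) lower. The median over all measured genes was -0.03. Of the genes named as higher in implanted activated cells, Cd14, Icam1, Il1a and Ifit1 were members of the inflammatory and interferon lists.

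Cd14 had the narrowest interval of these 4. It stood at 461 CPM in implanted and 209 CPM in non-implanted activated cells (ratio 2.21, 1.97 to 2.48), and was detected in 38.3% and 24.8% of them (24.1% and 13.7% thinned). Other neutrophils had 57.3 CPM in the implanted and 54.6 CPM in the non-implanted library, with detection in 11.6% and 9.21% (4.09% and 3.79% thinned), and B-lineage cells had it in 2.56% and 16% (0% and 8% thinned). Within bins of selecting UMIs the ratio was 1.66 (1.18 to 2.34) at 5 to 9 UMIs, 1.84 (1.46 to 2.34) at 10 to 19, 1.82 (1.45 to 2.28) at 20 to 39 and 2.49 (2.05 to 3.02) at 40 or more. Cd14 was thus higher in implanted cells within each of the 4 bins. The selecting genes themselves were not level within a bin: at 40 or more UMIs their ratio was 1.17 for Cxcl2, 1.26 for Acod1, 1.57 for Ccrl2 and 1.43 for Nr4a3, and the part of this in the Cd14 ratio was not tested.

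Icam1 stood at 59.7 CPM in implanted and 24.8 CPM in non-implanted activated cells (ratio 2.41, 1.73 to 3.38), with detection in 7.69% and 4.10% (3.32% and 1.92% thinned). B-lineage cells had it in 10.3% and 4% (2.63% and 0% thinned), so before thinning the implanted B-lineage share was above that of activated cells, and the shares are not read as a difference. Other neutrophils held 16 Icam1 UMIs in 6 implanted cells, 1 of which had 56.2% of them, and 7 UMIs in 6 non-implanted cells, too few to compare. Il1a, which encodes interleukin 1 alpha, stood at 31.2 CPM in implanted and 13.3 CPM in non-implanted activated cells (ratio 2.35, 1.49 to 3.78), and at 2.32 and 2.33 CPM in other neutrophils. Only 24 implanted and 20 non-implanted activated cells carried an Il1a UMI.

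Ifit1, an antiviral gene induced by interferon, stood at 31.7 CPM in implanted and 12 CPM in non-implanted activated cells (ratio 2.65, 1.66 to 4.35), and at 6.96 and 10.7 CPM in other neutrophils. It did not follow the selecting UMIs, with 51.1 CPM in implanted and 10.7 CPM in non-implanted cells at 5 to 9 UMIs and 7.11 and 10.2 CPM at 40 or more. Of 26 measured interferon response genes 4 were at least 1.5-fold higher in implanted activated cells (Ifit1, Ifit3, Isg15 and Rsad2), against 3.11% of all measured genes. The list's median was 0.16, against -0.09 in other neutrophils. Isg15, a ubiquitin-like protein gene, stood at 235 CPM in implanted and 146 CPM in non-implanted activated cells, and at 96.7 and 98.0 CPM in other neutrophils.

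Other genes named as higher had lower levels or unclear standing. Gm6977, a predicted gene, stood at 346 CPM in implanted and 104 CPM in non-implanted activated cells and at 190.4 and 80.7 CPM in other neutrophils, and near-identical copies elsewhere in the genome could split or share its reads. Hbb-bs, a haemoglobin gene, stood at 69.9 and 32.3 CPM in activated cells and at 51.1 and 23.8 CPM in other neutrophils. The whole erythroid list summed to 121 CPM in implanted and 58.9 CPM in non-implanted activated cells, against 94.4 and 46.7 CPM in other neutrophils, and the part of free erythroid RNA in this was not tested. Lyrm4, which serves iron-sulphur cluster assembly, stood at 41.9 and 13.7 CPM in activated cells. Il31ra, Lin52, Gm38305, Cdc42bpg and Dnajb2 stood between 19.3 and 37.1 CPM in implanted and between 6.64 and 15.9 CPM in non-implanted activated cells.

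Several larger differences rested on 1 cell and are not counted among the named genes. Il6 had 33.3 CPM in implanted activated cells and was listed at 0 in the non-implanted ones, with 90.3% of its UMIs in 1 of 2 cells. Prss34, a basophil protease gene, had 98.5% of its UMIs in 1 cell. Cxcl3, a chemokine close to Cxcl2, stood at 46.8 CPM in implanted and 13.7 CPM in non-implanted activated cells, with 50.6% of the implanted UMIs in 1 cell. On the lower side Elane stood at 14 CPM in implanted and 232 CPM in non-implanted activated cells, and 1 cell held 96.6% of its non-implanted UMIs.

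The NF-kappa B list leaned towards the implanted library. Of 21 measured members 19 had a positive log2 ratio, with a median of 0.26, against -0.02 in other neutrophils. At least 1.5-fold higher were 5 of them (Nfkb1, Relb, Nfkbie, Tnip1 and Icam1). Over all 7180 measured genes the median in activated cells was -0.03 and 3.11% were at least 1.5-fold higher. Nfkb1, the gene of the p105 and p50 subunit, stood at 470.3 CPM in implanted and 265 CPM in non-implanted activated cells (ratio 1.77, 1.60 to 1.97), and at 121.5 and 120.9 CPM in other neutrophils. Nfkbie stood at 86.0 and 41.6 CPM in activated cells (2.07, 1.59 to 2.69), Nfkbia at 1462 and 1098 CPM (1.33, 1.26 to 1.41) and Tnfaip3 at 335 and 247 CPM (1.36, 1.21 to 1.53). At the low end Nfkbid, another member of the inhibitor family, stood at 508 and 592 CPM (0.859, 0.789 to 0.934). With the 4 bins of selecting UMIs given the same weight the list's median was 0.21 and 17 of 21 members were positive.

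Interleukin 1 genes leaned the same way by less, with 11 of 12 measured members positive. Their median was 0.21, against -0.03 over all measured genes. Il1b stood at 5457 CPM in implanted and 4536 CPM in non-implanted activated cells (ratio 1.2, 1.17 to 1.24), and the other way round at 2010.3 and 2249.6 CPM in other neutrophils. Its ratio was 1.01 (0.941 to 1.07) in cells with 5 to 9 selecting UMIs and 1.46 (1.39 to 1.55) in those with at least 40. Il1r2, the decoy receptor that traps interleukin 1, stood at 3606 CPM in both. Chemokines had a median of 0.38 over 9 measured genes. Of these, 3 (Cxcl1, Cxcl3 and Ccl9) were at least 1.5-fold higher, against 3.11% of all measured genes. For Cxcl3, 1 cell held 50.6% of the implanted UMIs. The 9 included Cxcl2, on which the cells were selected. With the barcodes rich in genes of another type left out, 2 of 8 measured chemokines were higher, and their median was 0.37. Early response genes had a median of 0.01 over 31, and mature neutrophil genes -0.05 over 25.

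**Figure D5:**
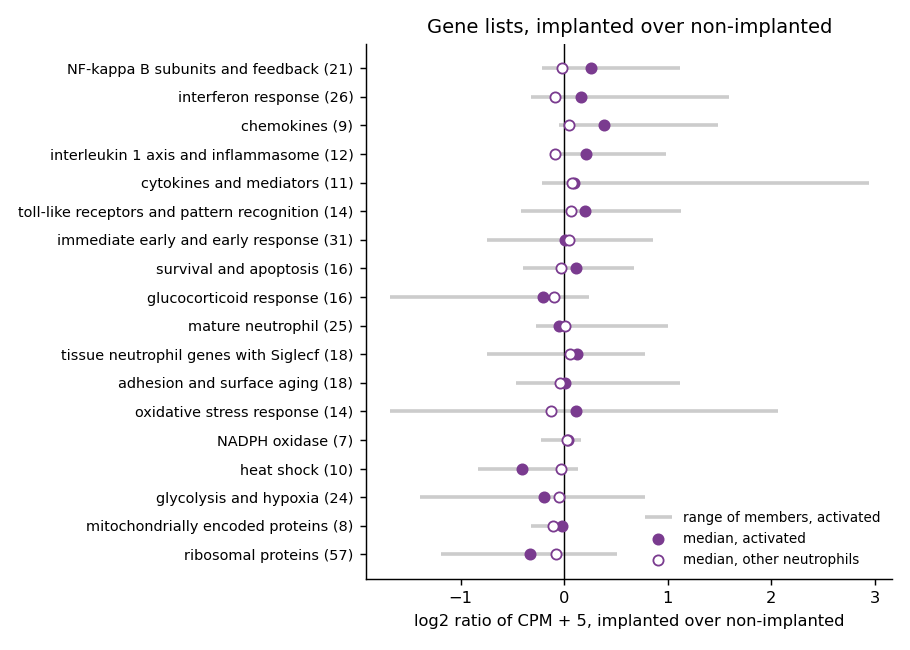
Log2 ratio of CPM + 5, implanted over non-implanted (x axis), for gene lists with the number of measured genes in brackets: filled points are list medians in activated cells, grey bars the range of members, open points medians in other neutrophils. The NF-kappa B median is 0.26 in activated cells and -0.02 in other neutrophils, and that of ribosomal proteins -0.33 and -0.08.

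On the lower side the first of the named genes was Egln3, a prolyl hydroxylase that marks hypoxia-inducible factors for breakdown. It stood at 12.9 CPM in implanted and 42.1 CPM in non-implanted activated cells (ratio 0.307, 0.187 to 0.484), and at 20.9 and 28 CPM in other neutrophils. Hk2, a hexokinase, stood at 21.0 and 45.2 CPM in activated cells (0.464, 0.312 to 0.677) and at 41.0 and 43.9 CPM in other neutrophils. Of 24 measured members of the glycolysis and hypoxia list 5 had a positive ratio, with a median of -0.19. At least 1.5-fold lower were 3 of them (Hk2, Egln3 and P4ha1). Over all measured genes the median was -0.03 and 4.82% were at least 1.5-fold lower. Ldha, lactate dehydrogenase, stood at 139.7 CPM in implanted and 158 CPM in non-implanted activated cells, and Ero1l, which forms disulphide bonds, stood higher in implanted cells at 66.6 and 36.7 CPM.

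Ribosomal protein genes had a median of -0.33 over 57, against a median of -0.08 in other neutrophils. Of the 57, 0 were at least 1.5-fold higher and 16 at least 1.5-fold lower, against 3.11% and 4.82% of all measured genes. Rpl37 stood at 31.2 CPM in implanted and 71.7 CPM in non-implanted activated cells, and Rps16 at 18.3 and 40.3 CPM. These genes have many near-identical pseudogenes, so their levels are uncertain where the counting could split reads between copies. Proliferation genes had the lowest list median, -1.30, with 7 of 8 at least 1.5-fold lower, against -0.84 in other neutrophils. They summed to 37.1 CPM in implanted and 159 CPM in non-implanted activated cells, and 1 non-implanted cell held 64.7% of the UMIs. Without the 18 rich barcodes the median was -1.11, with 7 of 8 lower. Heat shock genes had a median of -0.40, with 4 of 10 at least 1.5-fold lower (-0.25 and 2 of 10 without those barcodes), and the 16 glucocorticoid response genes a median of -0.20. The remaining genes named as lower were Atg4a, an autophagy protease, St3gal3, a sialyltransferase, Stra13, 2700060E02Rik, Trim34a, Rps25-ps1, Syt17 and Rwdd1, at 4.84 to 17.2 CPM in implanted and 18.6 to 39.4 CPM in non-implanted activated cells.

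Without the barcodes rich in genes of another type, 21 of 6988 genes were at least 2-fold higher and 51 lower in implanted activated cells. The NF-kappa B median was then 0.24 with 5 members at least 1.5-fold higher, the interferon median 0.13 with 3, the glycolysis and hypoxia median -0.21 and the ribosomal median -0.28. In a bulk sum over cells such as CPM, fewer cells carrying a transcript and less transcript per cell cannot be told apart, and detection is given above where both were read. The activated over other ratio was at least 1 log2 unit higher in the implanted library for 184 of 8855 genes and at least 1 lower for 171, and Cd14 was among the 184 by its ratios of 2.90 and 1.84.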

How the data were processed

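Per the file headers, the matrices were written by Cell Ranger 3.0.1 and hold deposited whole-number UMI counts per gene and barcode without normalization, and the submitters' processing notes list Seurat beside Cell Ranger, and the builds mm10 and GRCm38. Which aligner and annotation were used is not given in the sources used here. Counts were summed over the cells of a class in each library and divided by the class total to give CPM. Ratios are log2 of CPM plus 5, over genes with at least 20 UMIs in the compared classes. Feature rows that are not genes stayed out of all totals. No p-value is given, since there is 1 library per group. The cell filter, the members and the gene lists were chosen with earlier results of these data known. Named genes are, per comparison and direction, the 12 with the largest ratio among genes with at least 50 UMIs and no cell holding over 20% of the higher class's UMIs, for activated over other cells 2-fold in both libraries and ranked by the smaller ratio, plus list members that illustrate a list, including the highest and lowest. Doublets were not removed, except in an alternative that used Scrublet scores in scanpy 1.11.5. The ratio, interval and thinning steps were checked on simulated data, and the cell selection and the list summaries were not. The simulated counts were independent Poisson draws, so the check does not cover genes whose counts sit in a handful of cells. The scripts ran on Python 3.11.15 with matplotlib 3.10.9, pandas 2.3.3, scipy 1.17.1 and numpy 2.4.6. Promoter windows are from RefSeq, matched by symbol.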

Additional observations from a re-analysis of the deposited data

Results flagged for a closer look

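For 11 of the genes named between the libraries, activated cells stood above other neutrophils in one library and below them in the other. The log2 ratio of activated over other neutrophils, implanted minus non-implanted, was 1.73 for Lyrm4 (implanted 1.25, non-implanted -0.47), 2.19 for Lin52 (1.59 and -0.60), 0.66 for Gm38305 (0.23 and -0.44) and 0.94 for Dnajb2 (0.65 and -0.29). It was -1.04 for Egln3 (-0.53 and 0.51), -1.52 for St3gal3 (-1.15 and 0.37), -0.98 for Trim34a (-0.66 and 0.32) and -1.02 for Rwdd1 (-0.87 and 0.15). In Stra13, Hk2 and Syt17 the non-implanted ratio was within 0.04 of 0, and the differences were -1.60, -0.86 and -0.30. These genes were named by their implanted over non-implanted ratio in activated cells, which is a part of each difference. The direction of the differences is therefore not a separate result. There was 1 library of each kind, so these differences were not tested. The feature rows that are not genes held 11 UMIs in the implanted library and 11 in the non-implanted one, over all barcodes, and are used in no comparison.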

How the results depend on the processing

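The higher activated share among implanted neutrophils kept its direction under every alternative run, with differences of 5.58 to 10.2 points. The shares themselves moved with the threshold: 68.1% of implanted and 60.9% of non-implanted neutrophils at 3 UMIs, 44.6% and 34.4% at 10 UMIs, 67.2% and 59.9% with the selecting genes at 0.1% of a cell's UMIs or more, and 73.9% and 65.8% at 1 UMI in thinned cells. With the granule genes capped at 5% the implanted share was 54.1%.

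Counts of genes past 2-fold moved most. With 1 CPM as pseudocount 121 genes were higher and 267 lower in activated than in other neutrophils in both libraries, and with 20 CPM 29 and 14. Lower genes numbered 4 in cells of 2000 to 6000 UMIs, 15 in thinned cells, 6 with the same weight per cell, 109 without the most abundant genes in the total and 3 without barcodes rich in genes of another type, an alternative chosen after seeing the data. Between libraries, activated genes higher and lower in implanted cells numbered 98 and 213 (1 CPM), 7 and 11 (20 CPM), 18 and 34 (at least 50 UMIs), 21 and 51 (without rich barcodes) and 20 and 22 (without each gene's top cell). Lower genes there numbered 23 (2000 to 6000 UMIs), 45 (thinned) and 21 (same weight per cell). Genes whose activated over other ratio was at least 1 log2 unit higher or lower in the implanted library numbered 565 and 582 (1 CPM), 18 and 13 (20 CPM), 105 and 98 (at least 50 UMIs) and 360 and 296 (thinned). The lower ones numbered 285 without the most abundant genes in the total and 113 without top cells. Pdia6 reversed to 0.29 in cells of 2000 to 6000 UMIs and 0.13 without rich barcodes, Rps18 to 0.18 without them, and the non-implanted ribosomal median of activated over other cells to 0.050 and 0.12. The cause was not tested.

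Of 144 values of the 12 genes higher in activated cells 142 kept their direction and stayed at least 2-fold in both libraries. Of 120 values of the 10 lower genes 67 did, 50 fell below 2-fold and 3 reversed in both libraries. A gene that reversed in 1 library only was counted as below 2-fold. Rpl32 was such a gene without rich barcodes, at -0.10 in implanted and 0.50 in non-implanted neutrophils. The 24 genes named between the libraries reversed under 0 of 312 values. Those named as higher fell below 2-fold in 20 of 156 values, and those named as lower in 25 of 156. Il1a, Cdc42bpg and Dnajb2 among the higher and Rwdd1, Rps16 and Hk2 among the lower were already below 2-fold in the main run. Their values could not count as falling below it, so the remaining values were not all at least 2-fold. Of all 34 genes called higher and 86 called lower, thinned cells kept 9 and 4. Cells of 2000 to 6000 UMIs kept 13 and 10 of them. No paired analysis was possible because each group has 1 library. At about 2700 UMIs per cell, genes below about 20 CPM rest on few UMIs in a class. Neither the spread between animals nor that between captures can be read from these data.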
